A study of Homo sapiens with 4 samples.

Results

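The matrix metalloproteinases MMP1, MMP2, MMP7, MMP9, MMP10, MMP13 and MMP14 and the tissue inhibitors of metalloproteinases TIMP1, TIMP2 and TIMP3 were examined in a colon cancer epithelial cell line with and without TGF-β1. All probe sets (groups of short array probes that read 1 transcript) annotated to only 1 of these 10 gene symbols were taken, which gave 20 of the 54675 probe sets on the array. MMP1, MMP7, MMP9, MMP10, MMP13 and TIMP1 had 1 probe set each, MMP2 and TIMP2 had 3, and MMP14 and TIMP3 had 4. The cells, LSTGFBR2, carry a TGFBR2 construct, the type II TGF-β receptor, that doxycycline switches on in the T-Rex system. There were 2 arrays of untreated cells and 2 of cells that had 5 ng/ml human recombinant TGF-β1 for 16 hours, starting 16 hours after seeding. The treatment protocol adds 1 μg/ml doxycycline from seeding, the design text speaks of cells with and without it, and no label assigns it to single arrays. Whether the line is 1 clone, and whether replicates were separate cultures, is not stated either, so p-values reflect only how these arrays vary, and part of that may be technical.

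Matrix metalloproteinases are zinc enzymes that cut proteins of the extracellular matrix and of the cell surface. They are made as inactive precursors, and a cysteine of the propeptide blocks the zinc until the propeptide is removed. TIMPs bind the active site and stop the enzyme. In colorectal tumours some of these genes, MMP7 among them, are typically expressed by the cancer cells, while others, such as MMP2, come largely from stromal fibroblasts.

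The promoter of MMP10, the only one of the 10 genes that passed the test below, is shown beside those of MMP7, a gene of the same chromosomal cluster whose values lay at background, and TIMP1, whose values were far above it. RefSeq promoter sequences were at hand for 5 of the 10 genes (MMP7, MMP10, MMP14, TIMP1 and TIMP3). The 250 bases before the start site are given 5′ to 3′ on the strand of the gene, with matches to 6 motifs in capitals, searched on both strands. The motifs were the AP-1 site TGAGTCA, the PEA3 (ETS) site AGGAAG, the TATA box TATAAA, the core TTGGTGA of the TGF-β inhibitory element, the SMAD palindrome GTCTAGAC and the GC box GGGCGG.
MMP10: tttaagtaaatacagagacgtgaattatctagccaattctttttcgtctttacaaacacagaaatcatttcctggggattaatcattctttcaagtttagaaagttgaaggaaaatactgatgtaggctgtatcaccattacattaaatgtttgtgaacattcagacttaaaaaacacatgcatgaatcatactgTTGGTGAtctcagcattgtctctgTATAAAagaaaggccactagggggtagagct
MMP7: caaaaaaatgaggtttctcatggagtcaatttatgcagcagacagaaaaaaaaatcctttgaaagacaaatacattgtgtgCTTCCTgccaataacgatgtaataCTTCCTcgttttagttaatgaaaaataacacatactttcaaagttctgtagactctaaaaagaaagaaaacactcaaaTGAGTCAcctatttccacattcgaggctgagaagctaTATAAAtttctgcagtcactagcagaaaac
TIMP1: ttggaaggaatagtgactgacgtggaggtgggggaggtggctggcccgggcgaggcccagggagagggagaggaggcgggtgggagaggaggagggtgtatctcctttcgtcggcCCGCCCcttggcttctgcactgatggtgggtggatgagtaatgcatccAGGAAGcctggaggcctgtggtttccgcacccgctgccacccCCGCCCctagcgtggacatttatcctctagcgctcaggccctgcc
In GRCh38.p14 these windows lie at chr11:102780629-102780878 (minus strand) for MMP10, chr11:102530748-102530997 (minus strand) for MMP7 and chrX:47582186-47582435 (plus strand) for TIMP1.

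The MMP10 window held a TATA box from 31 to 26 bases before the start site and the TTGGTGA core from 55 to 49 bases before it. It held no match to the letters of the AP-1, PEA3, SMAD or GC box motifs. The MMP7 window held a TATA box (30 to 25 bases before), 1 AP-1 site (67 to 61) and 2 PEA3 matches, none of which overlapped another. The TIMP1 window held 2 GC boxes and 1 PEA3 match. Its GC content was 64.8%, against 34.4% for MMP10 and 33.6% for MMP7. The MMP14 window had 1 GC box and the TIMP3 window 5. Among the 35093 promoter windows of this length, 10.7% held TATAAA, 2.79% TTGGTGA, 4.20% TGAGTCA, 28.7% AGGAAG, 42.6% GGGCGG and 0.182% GTCTAGAC on either strand. Only exact letters were searched. Variants such as tgaatca in the MMP10 window and tgagtaa in the TIMP1 window, each 1 letter off TGAGTCA, were therefore not counted. How often such variants occur among all windows was not counted either. A match describes letters in the window and is no evidence of binding, and the lack of one is no evidence against it.

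Expression was given as RMA values, which are on the log2 scale, with array medians from 6.57 to 6.61. Across genes, which are not independent replicates, the correlation r was 0.996 between replicates of either group and 0.990 to 0.992 between groups. RMA gives no detection call. As a rough mark of background, the 95th percentile of 107 olfactory receptor probe sets was used, which was 6.80. Probe sets differ in how strongly they bind, so a value under this mark is not proof of absence, and levels are not compared between genes. TGFBR2 itself, by one of its 2 probe sets, stood at 9.44 and 9.55 without TGF-β1 and at 14.70 and 14.92 with it, while the other probe set had a log2 fold change of 0.03. The groups therefore differ in TGFBR2 signal as well as in TGF-β1, and these cannot be told apart. Whether the groups also differ in doxycycline is not stated, so its part cannot be told apart from that of TGF-β1 either. By group means, all 10 colon epithelial markers lay above the mark (EPCAM, KRT8 and KRT18 at 14.04 or more) and 1 of them, CDX2, was called lower. Of the other markers, 6 of 11 fibroblast, 6 of 8 endothelial and 7 of 8 measured leukocyte markers lay at or under it in both groups. The log2 of the summed fibroblast marker signal was 10.56 to 10.85 in the untreated arrays and 10.41 to 10.52 in the TGF-β1 arrays. PDGFRA, PDGFRB and FAP were under the mark, and COL1A1, COL3A1 and DCN were above it in the untreated group (means of 9.32, 8.33 and 7.15). COL1A2 and THY1 were above it in the TGF-β1 group only (means of 6.92 and 6.88). COL3A1 stood at 7.38 and 5.83 with TGF-β1 and at 9.18 and 7.48 without, a log2 difference of -1.72 with a SE of 0.663 (limma adjusted p = 0.267), and of the 11 fibroblast markers 0 passed this test. The part of other cell types in the results below was not tested.

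**Figure D1:**
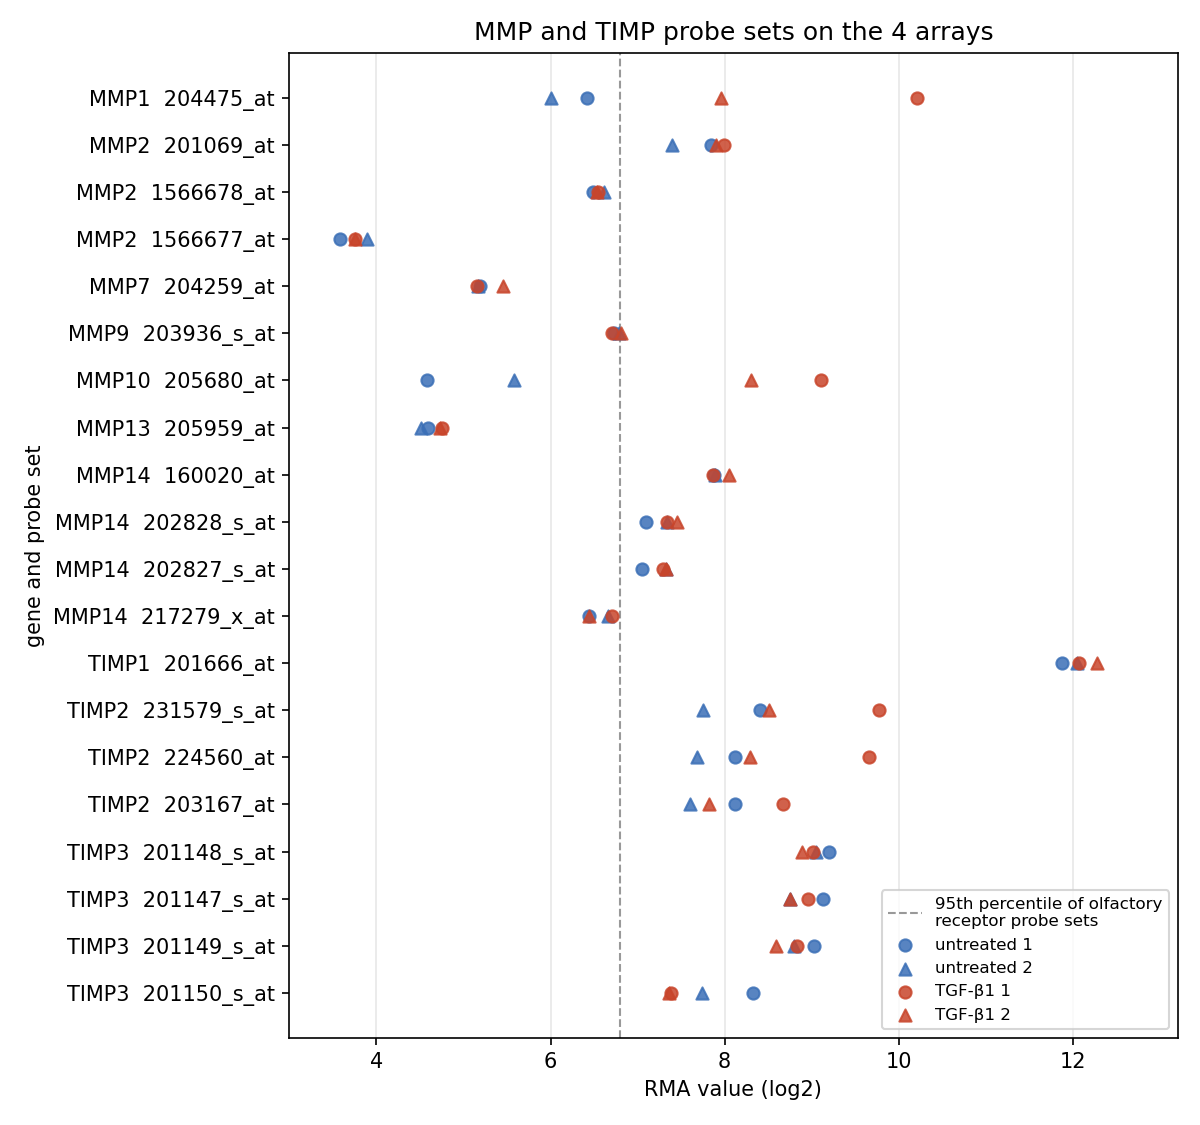
RMA value (log2, horizontal axis) of each of the 20 probe sets, with 1 point per array, untreated in blue and TGF-β1 in red, replicate number 1 as circles and 2 as triangles. The dashed line is the background mark at 6.80; MMP10 and MMP1 lie to its left in the untreated arrays and to its right in the TGF-β1 arrays, and all TIMP probe sets lie to its right.

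With TGF-β1, MMP10 was the 1 member called higher. Of the 7 metalloproteinase genes, 1 was called higher, 0 lower and 6 did not pass, and of the 3 TIMP genes 0 were called (limma, adjusted p under 0.05 over 19775 genes, each gene by its probe set with the highest mean; 1 of the 3 had an unadjusted p under 0.05, as had 16.7% of all genes). Of all genes tested, 3.34% were called, 1.87% higher and 1.47% lower. The median log2 fold change of the 10 members was 0.20, against -0.0036 over all genes. By the rule that the design text gives for its response signature (unadjusted limma p under 0.05 and at least 2-fold higher), 3 members qualified, MMP1, MMP10 and TIMP2, beside 1.02% of all genes. The groups did not overlap for 7 of the 10 genes, as was so for 44.4% of all genes. Tested one by one, 1 of the 20 probe sets was called, that of MMP10, beside 0.954% of all 54613 probe sets, and the groups did not overlap for 9, beside 40.8%.

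MMP10 encodes stromelysin 2, a secreted protease that cuts proteoglycans, fibronectin and laminin and can activate other metalloproteinase precursors. Its probe set (205680_at) gave 4.58 and 5.58 without and 9.10 and 8.30 with TGF-β1. Both untreated values lay under the array medians and the background mark, and both TGF-β1 values above them, so the groups were far apart. The difference was 3.63 ± 0.378 on the log2 scale (SE, n = 2 per group), with a 95% interval of 2.71 to 4.55, a 12.3-fold rise (limma adjusted p = 0.0106) that ranked 6 among all genes. As the untreated level was within the background range, the size of the fold is uncertain. Measured from the background mark, the TGF-β1 mean was higher by 1.91 on the log2 scale. The call was lost without untreated replicate 1 (limma adjusted p = 0.0583) or TGF-β1 replicate 1 (0.0621) and held without untreated replicate 2 (0.0278) or TGF-β1 replicate 2 (0.0404), with log2 fold changes from 3.13 to 4.12. Among single probe sets, with the larger number of tests, the limma adjusted p was 0.0233, but 0.0938 with replicate number as a block and 0.0783 to 0.173 with 1 array left out, so that the probe-set call was lost in all 4 of these fits.

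The genes whose pattern over the 4 arrays was most like that of MMP10 were PMEPA1, BHLHE40 and SNAI2. Likeness was the root mean square difference in log2 values after each gene's untreated mean was subtracted, which came to 0.334, 0.565 and 0.574. With 2 arrays per group this measure picks mainly genes with a similar size of change. The log2 fold changes were 3.61, 3.63 and 4.06, against 3.63 for MMP10. Their untreated means were 9.69, 8.44 and 5.54. That of SNAI2 lay under the background mark, so the size of its fold is uncertain. Shared regulation was not tested. PMEPA1 encodes an inhibitor of SMAD signalling, BHLHE40 a transcriptional repressor and SNAI2 the transcription factor Slug.

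MMP1 encodes interstitial collagenase, which cleaves fibrillar collagens. Its 1 probe set (204475_at) gave 6.41 and 6.01 without and 10.21 and 7.96 with TGF-β1. Both TGF-β1 arrays were above both untreated arrays, which lay under the background mark, but the TGF-β1 arrays differed from each other by 2.25. That gap ranked 7 among all genes. The difference was 2.87 ± 0.661 on the log2 scale (SE, n = 2 per group), with a 95% interval of 1.26 to 4.48 and a rank of 11 among all genes. With both untreated values under the mark this size is uncertain, and from the mark itself the TGF-β1 mean was higher by 2.29. With this spread the 7.32-fold difference did not pass over all genes (limma adjusted p = 0.0831). The call was gained when TGF-β1 replicate 2 was left out (limma adjusted p = 0.0149, log2 fold change 3.999), and without TGF-β1 replicate 1 the log2 fold change was 1.75 (limma adjusted p = 0.0575).

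**Figure D2:**
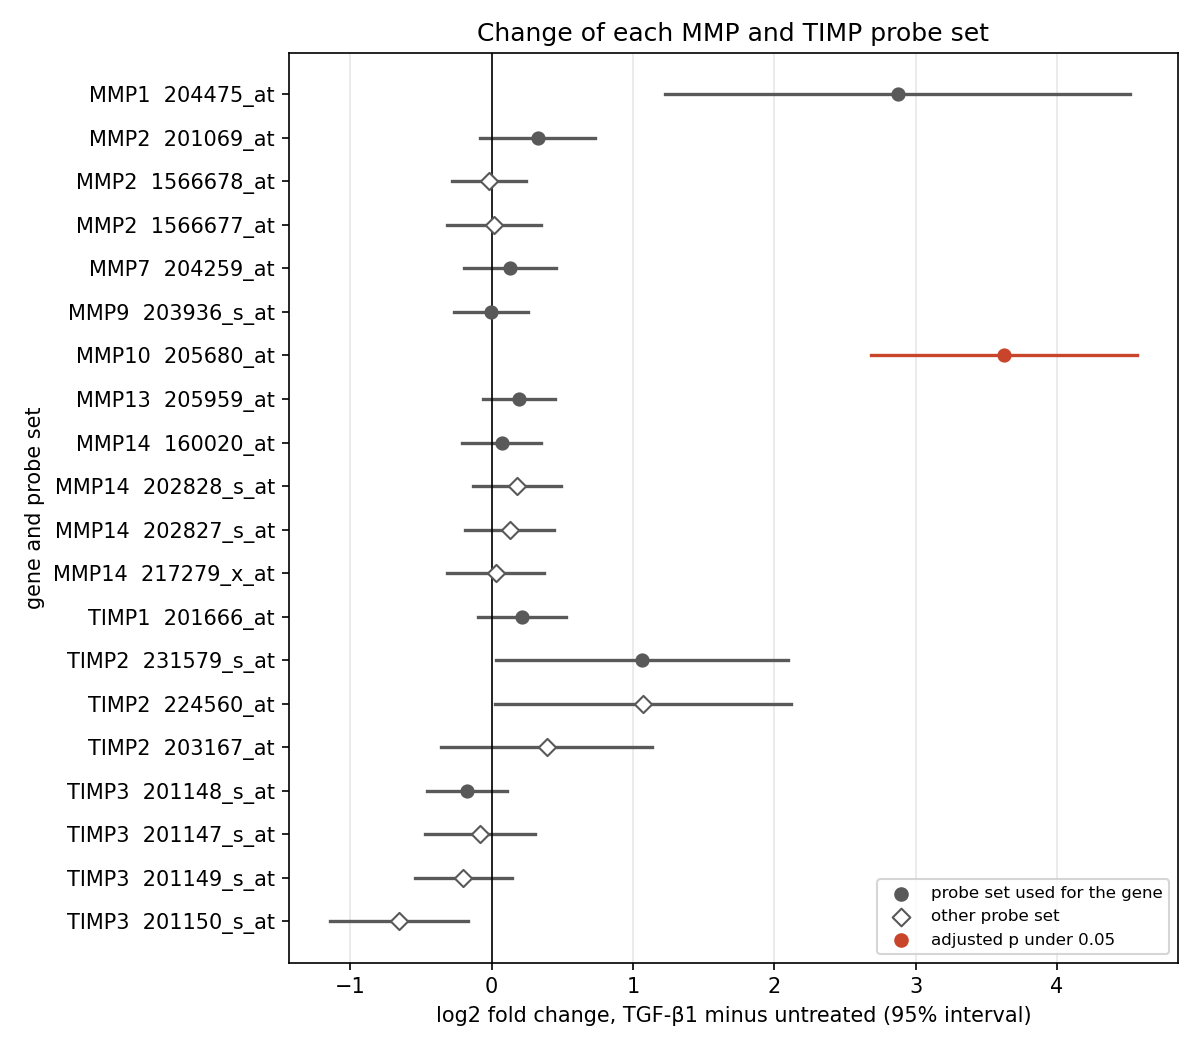
Log2 fold change (TGF-β1 minus untreated, horizontal axis) of each of the 20 probe sets with its 95% interval from limma, filled circles for the probe set used for the gene and open diamonds for others. MMP10 (red) is the one that passed over all probe sets; the intervals of MMP1, TIMP2 (by 2 of 3 probe sets) and TIMP3 (by 1 of 4) also leave out 0 without passing.

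The gelatinases MMP2 and MMP9 cut denatured collagen and type IV collagen of basement membranes. MMP2 was above the background mark by 1 of its 3 probe sets (201069_at), which gave 7.84 and 7.39 without and 7.99 and 7.90 with TGF-β1. The groups did not overlap, although the higher untreated value lay close to the TGF-β1 values. Its log2 fold change was 0.33 ± 0.161 (SE), with a 95% interval of -0.066 to 0.72 (limma adjusted p = 0.399). The other MMP2 probe sets lay under the mark on all arrays, with log2 fold changes of -0.016 and 0.017. MMP9 (203936_s_at) gave 6.73 and 6.79 without and 6.70 and 6.80 with TGF-β1, at the mark itself. Its groups overlapped, with a log2 fold change of -0.0035 and a 95% interval of -0.25 to 0.24.

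Matrilysin, encoded by MMP7, and collagenase 3, encoded by MMP13, lay under the mark in both groups. MMP7, which lacks the haemopexin domain of most family members and is secreted by epithelial cells, gave 5.19 and 5.16 without and 5.16 and 5.46 with TGF-β1. These values overlapped, and the 95% interval of the log2 fold change ran from -0.18 to 0.44. MMP13 gave 4.59 and 4.51 without and 4.76 and 4.74 with TGF-β1. The groups did not overlap, but the log2 fold change was 0.19 ± 0.098 (SE, limma adjusted p = 0.413), with a 95% interval of -0.045 to 0.43. Near background RMA values compress differences, so these intervals do not bound a change in low transcripts. In all, 6 of the 20 probe sets lay at or under the mark in both groups, namely those of MMP7, MMP9 and MMP13, 2 of MMP2 and 1 of MMP14. All probe sets of MMP7, MMP9 and MMP13 were among them.

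MMP14 encodes MT1-MMP, which is anchored in the cell membrane and activates the MMP2 precursor with the help of TIMP2. The probe set used for the gene (160020_at) gave 7.87 and 7.89 without and 7.86 and 8.05 with TGF-β1. The groups overlapped, with a log2 fold change of 0.072 and a 95% interval of -0.19 to 0.34 (limma adjusted p = 0.845). The log2 fold changes of its other 3 probe sets were 0.029, 0.13 and 0.18, and their groups overlapped as well. The probe set at 0.029 (217279_x_at) was the one under the mark, and probe sets of the _x_at kind share probes with other transcripts.

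The TIMP genes all read above the background mark, by all 8 of their probe sets. TIMP1, a secreted inhibitor of most matrix metalloproteinases, gave 11.88 and 12.05 without and 12.07 and 12.28 with TGF-β1. Both TGF-β1 values were above both untreated ones, but the nearest of them lay closer together than the replicates of either group. The difference was 0.21 ± 0.122 on the log2 scale (SE, n = 2 per group), with a 95% interval of -0.083 to 0.51 (limma adjusted p = 0.479).

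TIMP2, which inhibits these enzymes and also takes part in MMP2 activation, was the TIMP with the largest difference. The probe set used for the gene (231579_s_at) gave 8.40 and 7.76 without and 9.77 and 8.51 with TGF-β1. The groups did not overlap, but the lower TGF-β1 value was only a little above the higher untreated one. The log2 fold change was 1.07 ± 0.416 (SE, 95% interval 0.053 to 2.08), which did not pass (limma adjusted p = 0.274). A second probe set (224560_at) gave 1.07 and the third (203167_at), whose groups overlapped, 0.39. The TGF-β1 arrays differed by 1.26 in TIMP2, a gap that ranked 30 among all genes. Without TGF-β1 replicate 1 the log2 fold change was 0.43, and without TGF-β1 replicate 2 it was 1.70, neither past the test (limma adjusted p = 0.620 and 0.107).

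TIMP3 encodes the inhibitor that stays bound to the matrix and also blocks ADAM proteases. The probe set used for the gene (201148_s_at) gave 9.20 and 9.05 without and 9.01 and 8.89 with TGF-β1. The untreated values were the higher ones, with a log2 fold change of -0.18 ± 0.110 (SE) and a 95% interval of -0.44 to 0.092 (limma adjusted p = 0.530). All 4 TIMP3 probe sets had a negative log2 fold change, from -0.66 to -0.082. The largest came from 201150_s_at, which gave 8.33 and 7.73 without and 7.39 and 7.36 with TGF-β1 and did not pass over all probe sets (limma adjusted p = 0.232).

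MMP10, MMP1 and TIMP2 all differed more between the groups for replicate number 1 than for number 2. From replicate number 1 in one group to the same number in the other, MMP10 differed by 4.53 on the log2 scale and MMP1 by 3.80, against 2.73 and 1.95 for replicate number 2. For TIMP2 these differences were 1.37 and 0.76. All 3 genes were also higher in TGF-β1 replicate 1 than in TGF-β1 replicate 2 (by 0.80, 2.25 and 1.26), whereas TIMP1 was lower there by 0.20. The untreated arrays did not differ alike in the 3 genes. In untreated replicate 1, MMP10 was lower than in untreated replicate 2 by 0.997, with both values under the background mark. MMP1 and TIMP2 were higher there by 0.41 and 0.64. The numbers are not stated to mark shared cultures.

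**Figure D3:**
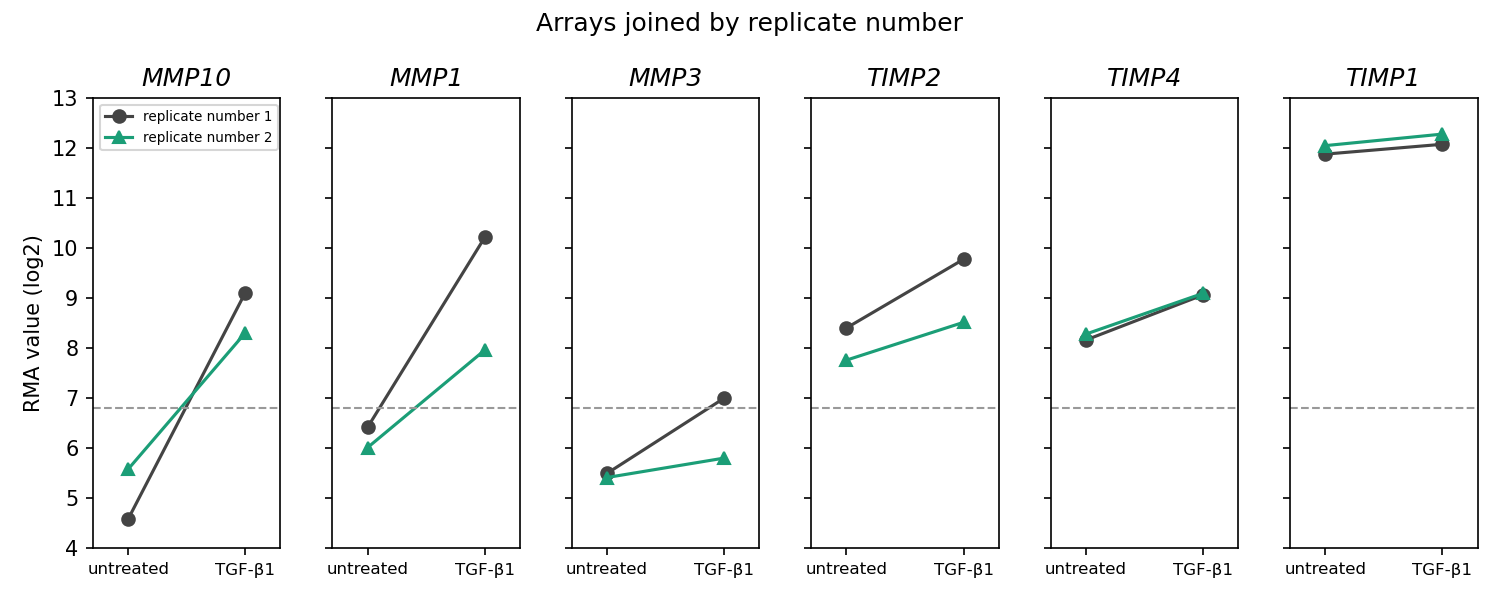
RMA value (log2, vertical axis) of MMP10, MMP1, MMP3, TIMP2, TIMP4 and TIMP1 in untreated and TGF-β1 arrays, each by the probe set used for the gene, with lines joining arrays of the same replicate number (1 in grey, 2 in green) and the background mark at 6.80 dashed. The lines of replicate number 1 are the steeper ones for MMP10, MMP1, MMP3 and TIMP2, while those of TIMP4 and TIMP1 run nearly parallel.

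MMP10 and MMP1 are neighbours in a cluster on chromosome 11, where the RefSeq gene table lists 9 protein-coding genes from MMP7 to MMP13, all of them metalloproteinases. In their order along the chromosome the log2 fold changes were 0.13 for MMP7, -0.083 for MMP20, -0.11 for MMP27, -0.020 for MMP8, 3.63 for MMP10, 2.87 for MMP1, 0.95 for MMP3, -0.040 for MMP12 and 0.19 for MMP13. MMP3, stromelysin 1, a close relative of MMP10, gave 5.49 and 5.41 without and 6.995 and 5.80 with TGF-β1. Its groups did not overlap, only the TGF-β1 replicate 1 value exceeded the background mark, and the difference did not pass (0.95 ± 0.356 SE, limma adjusted p = 0.256, and 0.0366 without TGF-β1 replicate 2). The 3 genes with the largest differences thus stand side by side, a pattern picked out after the values were seen and not tested. By group means MMP3 lay under the mark in both groups (5.45 without and 6.40 with TGF-β1), as did the 6 genes of the cluster other than these 3.

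**Figure D4:**
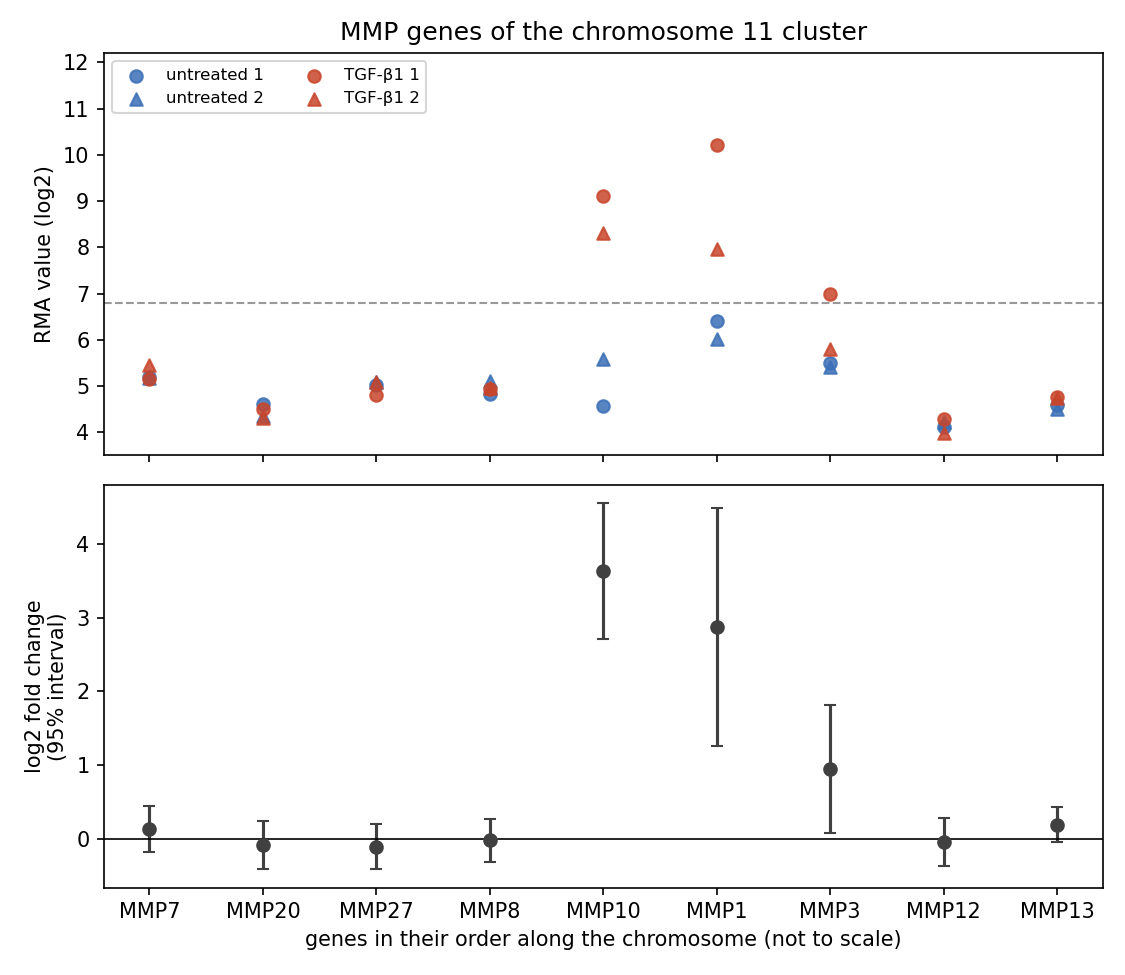
RMA values (log2, upper panel, 1 point per array, background mark dashed at 6.80) and log2 fold changes with 95% intervals from limma (lower panel) of the 9 metalloproteinase genes of the chromosome 11 cluster, in their order and not to scale. MMP10, MMP1 and MMP3 have log2 fold changes of 3.63, 2.87 and 0.95, and the other genes lie between -0.11 and 0.19.

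The remaining metalloproteinases and TIMP4 were counted as a list. Of 16 measured genes, 1 was called higher, 0 lower and 15 did not pass, beside 3.34% called among all genes, and 8 lay at or under the background mark in both groups. The list median was -0.029, against -0.0036 over all genes. The gene called higher was TIMP4, an inhibitor of the same family, which gave 8.16 and 8.28 without and 9.06 and 9.09 with TGF-β1. The replicates lay close together and the groups were apart, with a log2 fold change of 0.86 ± 0.102 (SE, n = 2 per group, limma adjusted p = 0.0152). TIMP4 did not pass with any 1 array left out (limma adjusted p = 0.0751 without untreated replicate 2, 0.0960 without TGF-β1 replicate 1, 0.107 without TGF-β1 replicate 2 and 0.121 without untreated replicate 1). MMP26 lay under the mark in both groups, with a log2 difference of -0.34 that missed the threshold (limma adjusted p = 0.312). MMP15, a membrane-anchored enzyme related to MMP14 and chosen after its values were seen, read 9.22 to 9.48 over the 4 arrays, with a log2 fold change of -0.026.

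Proteins that activate these enzymes or hold them at the cell surface were counted next. Of 21 measured genes of activation, inhibition and surface binding, 4 were called higher, 0 lower and 17 did not pass (list median 0.096 on the log2 scale), where 1.87% of all genes were called higher and 1.47% lower. PLAUR, the urokinase receptor, which localises plasmin formation and with it the activation of metalloproteinase precursors, rose 2.84-fold (limma adjusted p = 0.00311), reading 9.12 and 9.28 without and 10.72 and 10.69 with TGF-β1. FURIN, the convertase that cuts the propeptide of MMP14, rose 1.87-fold, from 8.52 and 8.80 to 9.55 and 9.58. SERPINB5, or maspin, an epithelial serpin, rose 3.03-fold, and ITGAV, the integrin αv subunit, 1.57-fold. PLAUR also passed with any 1 array left out, while FURIN, SERPINB5 and ITGAV then did not (limma adjusted p 0.0623 to 0.234). The ITGAV call was also lost with the replicate block (0.0591) and over single probe sets (0.0819); for SERPINB5, the probe set used here missed the threshold over single probe sets (0.0541) and its other one passed (0.0218).

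Among 19 measured ADAM and ADAMTS genes, the related adamalysin proteases, 1 was called higher, 0 lower and 18 did not pass, again beside 3.34% of all genes, with a median of 0.011. The enzyme gene ADAMTS15, which cleaves aggrecan and versican, rose 2.03-fold, from 7.52 and 7.67 to 8.39 and 8.84. With any 1 array left out it did not pass (limma adjusted p 0.0557 to 0.211), nor by the mean of its probe sets (0.111) or over single probe sets (0.0658 and 0.972). ADAM19 and ADAM9 came next with log2 fold changes of 0.41 and 0.40 and did not pass, ADAM19 lying under the background mark in both groups.

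Of 23 measured substrates of these enzymes, 3 were called higher, 1 lower and 19 did not pass, with a median of 0.067, beside the same 3.34%. LAMB3, a laminin chain of epithelial basement membranes, rose 3.54-fold, HBEGF, a membrane-bound growth factor that metalloproteinases release, 1.78-fold and SDC4, the proteoglycan syndecan 4, 1.53-fold. COL4A2, a chain of basement membrane collagen, fell by 0.53 on the log2 scale. LAMB3 passed with either untreated array left out (limma adjusted p = 0.0478 and 0.0225) and not with either TGF-β1 array left out (0.112 and 0.135), and the other 3 did not pass with any 1 array left out (0.0991 to 0.241). The COL4A2 call was also lost with arrays centred on their medians (limma adjusted p = 0.0503) or on housekeeping genes (0.0509), with the replicate block (0.0651) and over single probe sets (0.0889 and 0.140). That of SDC4 was lost with the block (0.0512) and over single probe sets (0.0664), and that of HBEGF by the mean of its probe sets (0.134). Over single probe sets, HBEGF passed by the one used here (limma adjusted p = 0.0408). Its other probe sets had log2 fold changes of 0.69, -0.036 and -0.16 and did not pass.

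Of 24 measured transcription factors known to act on metalloproteinase promoters, 4 were called higher, 0 lower and 20 did not pass, with a median of 0.18, again beside 3.34% of all genes. Those called higher were the AP-1 genes JUNB (3.13-fold), FOS (2.65-fold) and JUN (2.47-fold) and SMAD3 (1.87-fold). JUNB passed in each fit without 1 array (limma adjusted p 0.0274 to 0.0384), FOS only without untreated replicate 2 (0.0314), and JUN and SMAD3 in none of these fits (0.0591 to 0.203). SMAD3 was not called with the replicate block (limma adjusted p = 0.0516) or by any of its single probe sets (0.0501 to 0.186), nor was FOS over single probe sets (0.0567). For JUN, 1 of 4 single probe sets passed (0.0178), not the one used here (0.0590).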

How the data were processed

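Total RNA of 2 untreated and 2 TGF-β1-treated LSTGFBR2 samples was measured on HG-U133 Plus 2.0 arrays. The deposited log2 values were made by the authors with RMA (background correction, quantile normalization and summarization), per the series' design text and the submitters' processing notes. No software version is stated in them. The log2 scale was judged from the range (2.48 to 15.34). RMA forces a common distribution on the arrays, so a shift of most genes cannot be seen, and it compresses low values. The array number limits the precision.

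Groups came from the sample titles. The platform annotation named 41091 probe sets by 1 gene symbol, updated through Entrez IDs, and 62 array controls were left out. Each of 19775 genes was taken by its probe set with the highest mean, and all 54613 probe sets were also tested singly, in limma 3.58.1 (R 4.3.3; lmFit, eBayes, 6.13 degrees of freedom, no covariate or filter), with Benjamini-Hochberg adjustment. The fit was tested on simulated data. An exact permutation test has 6 splits and cannot go below p = 0.333, so none was used. Arrays of the same replicate number shared part of their spread (r = 0.364 between deviations across genes), and no label says that they share a culture.

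Members and lists were chosen with earlier results of these data known. Named genes are the members, TGFBR2, up to 4 called genes per list (where fewer than 2 were called, also the uncalled genes with the largest change), the 3 most like each called member, and markers. The other genes of the chromosome 11 cluster and MMP15 were named after their values were seen. Alternatives were filters at a mean log2 of 5 or 7, an intensity trend, other centring, other handling of probe sets, a replicate block, other call rules, leaving out each array, and another background mark.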

Additional observations from a re-analysis of the deposited data

How the results depend on the processing

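MMP10 passed in all 7 other gene-level fits that kept it and the 4 arrays (limma adjusted p from 0.00668 to 0.0473, the highest with the replicate block); with genes under a mean log2 of 7 left out it was not tested, and 0 members and 0 probe sets were called. MMP1 passed in none of 8 such fits (0.0622 to 0.0831), nor did TIMP2 (0.0679 to 0.335). With the replicate number as a block, though no label says that it pairs samples, 561 genes were called in place of 660 (441 shared), 1 member gene, 0 member probe sets and 10 of the 14 list genes called without it. At an unadjusted p under 0.05, 3305 genes, 3 members and 29 list genes in place of 14 were called, by the signature rule with its mirror for lower genes 274 genes (201 higher and 73 lower), 3 members and 8 list genes, and over probe sets 8 list genes. With 1 array left out, which leaves 1 residual degree of freedom and assumes that a lone array varies like the others, 70 to 104 genes, 0 to 2 members, 0 to 1 member probe sets (the 1 being that of MMP1, without TGF-β1 replicate 2) and 2 to 4 list genes were called. A background mark at a mean log2 of 5 left 2 probe sets under it in both groups in place of 6.

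Values near 0 changed sign without passing. MMP9 became 0.0043 with arrays centred on their medians and 0.026 on housekeeping genes (6 of the 8 listed were measured), which also turned an MMP2 probe set to 0.013. With 1 array left out the log2 fold changes ran from -0.053 to 0.046 for MMP9, -0.019 to 0.28 for MMP7, -0.020 to 0.16 for MMP14, -0.079 to 0.046 for MMP2 1566678_at, -0.14 to 0.17 for MMP2 1566677_at, -0.0094 to 0.27 for MMP14 202827_s_at, -0.10 to 0.16 for MMP14 217279_x_at, -0.035 to 0.81 for TIMP2 203167_at and -0.27 to 0.11 for TIMP3 201147_s_at. No other call on a member changed with the block.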
